A study of Homo sapiens with 24 samples.

Results

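The 9 genes described here encode transcription factors that pattern the anterior end of the neural plate, the territory that gives rise to the forebrain and the eyes. They were chosen by name from the count table, by the symbols OTX2, FEZF2, RAX, SIX3, SIX6, LHX2, HESX1, NR2E1 and EMX2, and are 9 of the 61551 genes used. RNA was sequenced from H9 cells, an established human embryonic stem cell line (hESCs), of 4 genotypes. These were hHAR123 (unedited, also called WT), HAR123-KO (both copies of HAR123 deleted), cHAR123 (the chimpanzee ortholog in place of the human sequence) and mHAR123 (the mouse ortholog in its place). HAR123 is a human accelerated region, a conserved stretch of DNA that gathered many changes on the human lineage, and it lies in an intron of SMG6. Each genotype was profiled as untreated hESCs (ESC stage) and as neuroectoderm, reached after 5 days with Noggin at 500 ng/ml and SB431542 at 10 μM, which block BMP and TGF-β/Activin signaling. There were 3 libraries per genotype and stage, 24 in all. The study used a pair of clones per genotype for RNA-seq, and the clone behind each library is not given in the sources used here, so p-values measure the spread between these libraries, which may in part be technical.

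The neural plate is divided along the head-to-tail axis soon after it forms. Its most anterior part expresses OTX2, HESX1, SIX3 and RAX early, and WNT signals from more posterior tissue restrict this program. RAX, SIX3, SIX6 and LHX2 belong to the eye field network, FEZF2 and EMX2 specify parts of the forebrain, and NR2E1 maintains neural progenitors there. OTX2 marks the midbrain as well as the forebrain. OTX2 and HESX1 are also expressed in pluripotent cells, before a neural plate exists.

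Library totals ran from 23334732 to 35198684 counts in hESCs and from 21022748 to 25978892 in neuroectoderm. A summary table of the study gives the cHAR123 and mHAR123 neuroectoderm libraries the other way round from the labels of the count columns. Values are given here by the column label, and if the labels were crossed, the cHAR123 and mHAR123 values within neuroectoderm below would change places. Comparisons of these genotypes across the stages would then pair other libraries and take other values. The labelled stages were checked against marker genes. The 11 pluripotency genes summed to between 7544 and 8180 CPM (counts scaled to a common library total) in hESCs of the 4 genotypes and to between 1931 and 2160 CPM in neuroectoderm, whereas 12 general neural plate genes summed to 967 to 999 CPM in hHAR123 hESCs and to 4308 to 4366 CPM in hHAR123 neuroectoderm. Of 10 mesoderm and endoderm genes, the summed level was at most 5.45 CPM in any library.

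In the GRCh38 coordinates of the count table, OTX2 (ENSG00000165588) lies on chromosome 14 from 56799905 to 56816693 on the minus strand, and SIX6 (ENSG00000184302) lies on the same chromosome from 60509146 to 60512850 on the plus strand. FEZF2 (ENSG00000153266) and HESX1 (ENSG00000163666) both lie on the minus strand of chromosome 3, from 62369681 to 62374324 and from 57197838 to 57227606. RAX (ENSG00000134438) occupies 59267035 to 59274086 on the minus strand of chromosome 18. The remaining members are on plus strands: SIX3 (ENSG00000138083) on chromosome 2 from 44941702 to 44946071, LHX2 (ENSG00000106689) on chromosome 9 from 124001670 to 124033301, NR2E1 (ENSG00000112333) on chromosome 6 from 108166022 to 108188805, and EMX2 (ENSG00000170370) on chromosome 10 from 117542445 to 117549546. EMX2 shares 348 exon bases, 10.7% of its exon length, with the antisense gene EMX2OS, which stood at 124 CPM in hHAR123 neuroectoderm and 57.1 CPM in HAR123-KO neuroectoderm. Whether counting used the strand is not given in the sources used here, so part of the EMX2 count cannot be told apart from EMX2OS. SIX3 shares 207 bases with SIX3-AS1, which had 6 counts over all libraries.

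RefSeq promoter windows of 300 bases, from 250 bases before to 50 bases after a transcription start, were found for 7 of the 9 members (GRCh38.p14, 10 windows). FEZF2 and SIX3 had none in the table used. Windows are shown for NR2E1 and RAX, which had the largest differences between HAR123-KO and hHAR123, for EMX2, and for HESX1, the member whose level fell with differentiation. The sequences are written 5′ to 3′ on the strand of the gene, and capitals mark TAATTA, a core that homeodomain proteins such as RAX, LHX2 and EMX2 can bind.
NR2E1, chr6:108165772-108166071, plus strand: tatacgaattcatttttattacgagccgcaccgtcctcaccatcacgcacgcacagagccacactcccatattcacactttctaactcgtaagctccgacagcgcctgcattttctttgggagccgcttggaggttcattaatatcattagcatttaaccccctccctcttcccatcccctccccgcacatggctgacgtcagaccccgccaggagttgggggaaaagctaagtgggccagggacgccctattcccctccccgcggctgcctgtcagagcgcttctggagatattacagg
RAX, chr18:59273405-59273704, minus strand: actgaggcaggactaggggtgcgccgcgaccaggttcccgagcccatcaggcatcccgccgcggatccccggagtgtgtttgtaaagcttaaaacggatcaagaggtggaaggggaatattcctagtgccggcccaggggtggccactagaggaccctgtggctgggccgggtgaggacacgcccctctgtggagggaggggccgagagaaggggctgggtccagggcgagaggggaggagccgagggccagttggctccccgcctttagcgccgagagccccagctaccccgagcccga
EMX2, chr10:117542496-117542795, plus strand: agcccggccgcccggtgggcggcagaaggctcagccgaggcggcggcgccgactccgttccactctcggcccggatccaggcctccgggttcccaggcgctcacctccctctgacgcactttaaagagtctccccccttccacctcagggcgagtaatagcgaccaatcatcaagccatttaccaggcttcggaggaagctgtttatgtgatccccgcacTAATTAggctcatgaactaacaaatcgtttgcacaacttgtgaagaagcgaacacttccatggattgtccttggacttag
HESX1 (second start), chr3:57199929-57200228, minus strand: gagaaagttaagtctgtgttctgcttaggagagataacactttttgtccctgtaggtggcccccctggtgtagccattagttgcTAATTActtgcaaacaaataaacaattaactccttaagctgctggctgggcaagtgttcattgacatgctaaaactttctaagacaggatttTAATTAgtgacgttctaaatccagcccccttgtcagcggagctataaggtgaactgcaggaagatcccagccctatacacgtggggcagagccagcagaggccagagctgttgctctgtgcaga

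The EMX2 window holds TAATTA once, 30 bases before the start, and the second HESX1 window holds it at 166 and at 74 bases before the start. TAATTA is its own reverse complement and was present in 4.84% of the 35116 windows of all genes. Neither strand of the 10 member windows holds TAATCC, the core bound by OTX2, which 6.36% of all windows hold. The same was true of AAGTCA, the half-site of NR2E1, held by 12.5% of all windows. These matches are descriptions of the letters in short windows. The windows differed in base composition, from 46.3% GC in the second HESX1 window to 78.7% in the first, with 67% in RAX, 54.7% in NR2E1 and 58% in EMX2, beside a median of 58.7% over all windows. The 20 CpG of the RAX window, the 21 of the EMX2 window and the 17 of the NR2E1 window shown were above the median of 14. The second HESX1 window held 3.

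To compare levels between genes, CPM was divided by the length of the gene in the count table (FPKM). In hHAR123 neuroectoderm, OTX2 had the highest level, at 150.1 ± 2.59 FPKM (SD, n = 3), followed by FEZF2 at 39.4 ± 0.732 FPKM and EMX2 at 26.4 ± 0.571 FPKM. NR2E1 followed at 6.61 ± 0.254 FPKM, RAX at 2.63 ± 0.203 FPKM and SIX3 at 1.83 ± 0.157 FPKM. HESX1, at 0.959 ± 0.0546 FPKM, and LHX2, at 0.706 ± 0.192 FPKM, overlapped between libraries. SIX6 was at 0.0293 ± 0.0277 FPKM. Thus the eye field genes RAX, SIX3 and LHX2 stood well below the forebrain genes FEZF2 and EMX2 in these cultures. In HAR123-KO neuroectoderm the order of levels was different, with EMX2 second at 8.42 ± 0.426 FPKM, FEZF2 next at 3.14 ± 0.165 FPKM and NR2E1 at 0.141 ± 0.0271 FPKM.

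**Figure D1:**
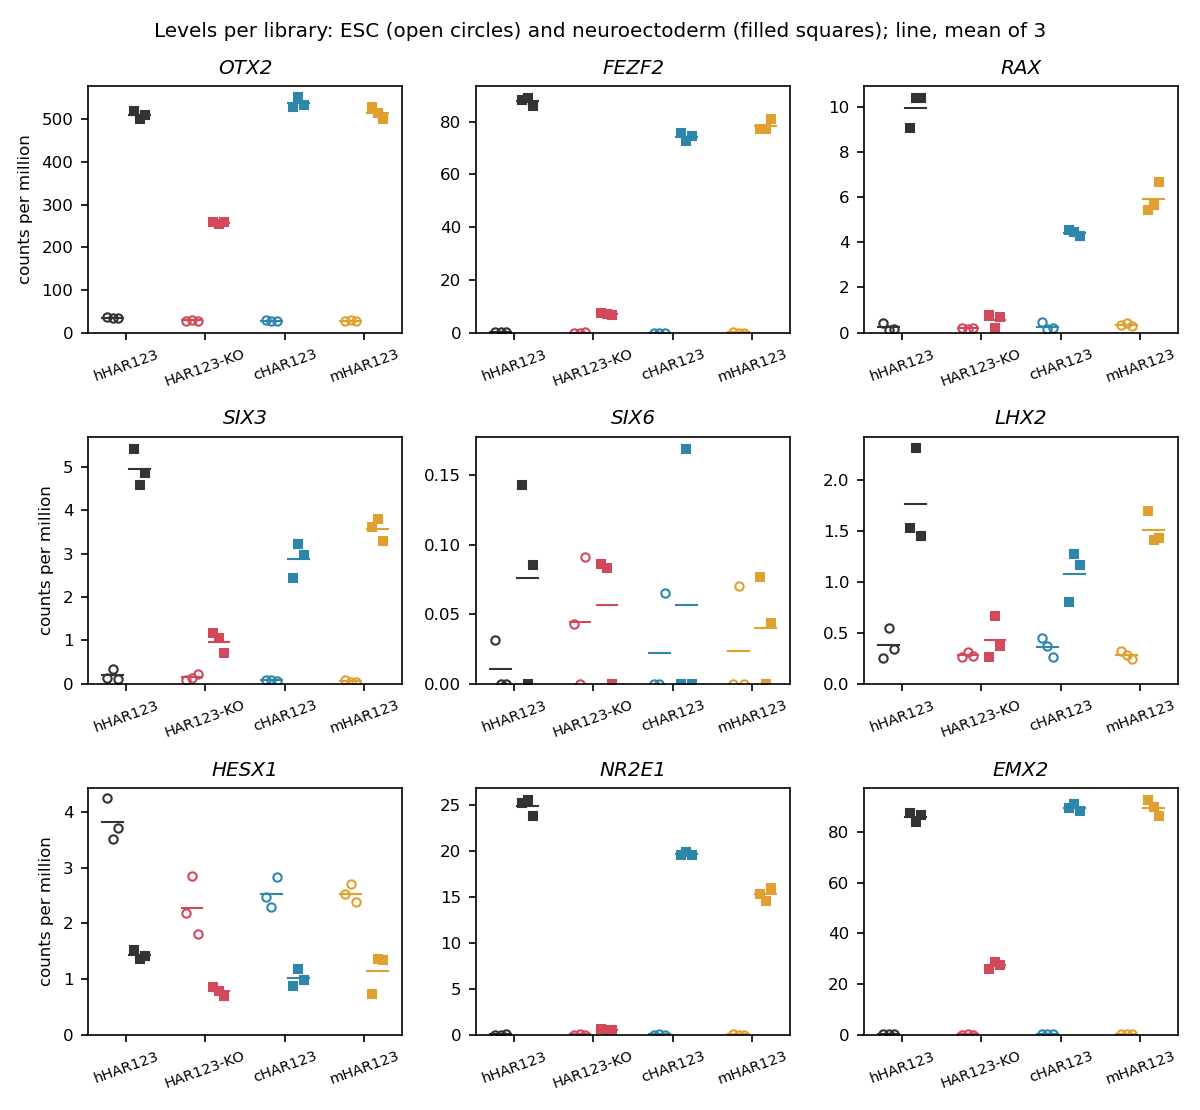
Level of each of the 9 genes in CPM (y axis, linear, a scale of its own per gene) in the 4 genotypes (x axis), with 1 point per library, open circles for hESCs and filled squares for neuroectoderm, and a line at the mean of 3 libraries. The neuroectoderm libraries of HAR123-KO lie below those of the other genotypes for every gene but SIX6 and, against 1 mHAR123 library, HESX1, and HESX1 is the only gene with its higher levels in hESCs.

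The first question was how the factors differ between HAR123-KO and hHAR123 at the neuroectoderm stage. Loss of HAR123 was accompanied by lower levels of FEZF2, RAX, SIX3, LHX2, NR2E1 and EMX2, which stood at between 2.14% (NR2E1) and 31.9% (EMX2) of their hHAR123 means. OTX2 and HESX1 stood at 50.4% and 54.6%. Differentially expressed genes (DEGs) were those with an adjusted p under 0.01 in the quasi-likelihood test of edgeR (adjusted by Benjamini-Hochberg over all genes tested) and a log2 fold change over 1 in size. By these thresholds 6 of the 8 members tested were down-regulated in HAR123-KO, beside 4.52% of the 21362 genes tested, and none was up-regulated. SIX6 did not pass the filter on low counts, and a member that passed through its hHAR123 libraries alone could only differ downward, so this count is a description. The median log2 fold change of the 8 members was -2.14, and that of all genes tested was 0.00.

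NR2E1 encodes the orphan nuclear receptor TLX, which keeps neural stem cells of the forebrain and retina proliferating. Its level was 25.3, 25.6 and 23.8 CPM in the hHAR123 libraries and 0.646, 0.499 and 0.450 CPM in the HAR123-KO libraries, which held 11 to 15 counts each. The groups lay far apart. NR2E1 fell by 5.49 ± 0.138 on the log2 scale (SE; edgeR quasi-likelihood adjusted p = 2e-36), the largest change among the members.

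FEZF2 is a zinc finger repressor of the anterior forebrain that later specifies subcortical projection neurons. It stood at 88.3, 89.1 and 86.0 CPM in hHAR123 and at 7.24, 7.20 and 6.58 CPM in HAR123-KO, so no library of one genotype approached the other. The fitted change was -3.60 ± 0.0615 on the log2 scale (edgeR adjusted p = 7.9e-44), a 12.1-fold lower level. FEZF2 nonetheless remained at a few CPM in the mutant, with 161 to 173 counts per library.

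EMX2, a homeobox gene of the dorsal forebrain and cortical primordium, kept the largest share of its level among the 6 DEGs. Its libraries were at 87.5, 84.0 and 86.8 CPM in hHAR123 and at 26.1, 28.8 and 27.5 CPM in HAR123-KO. The change was -1.60 ± 0.0481 (log2; edgeR adjusted p = 6.8e-33), or 3.02-fold. EMX2OS, with which it shares exon bases, was lower in the same libraries by the values given above.

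The eye field genes were fewer in counts. RAX, the retina and anterior neural fold homeobox gene without which eyes do not form, was at 9.09, 10.4 and 10.4 CPM in hHAR123 and at 0.775, 0.208 and 0.695 CPM in HAR123-KO. It fell by 4.10 ± 0.188 on the log2 scale (edgeR adjusted p = 5.3e-25), and the second HAR123-KO library held only 5 counts. SIX3, which represses WNT genes in the anterior neural plate, was at 5.42, 4.59 and 4.87 CPM in hHAR123 and at 1.16, 1.04 and 0.695 CPM in HAR123-KO. SIX3 fell by 2.30 ± 0.188 on the log2 scale (edgeR adjusted p = 2.8e-15).

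LHX2, a LIM homeobox gene needed for the optic vesicle and the cortex, had 32, 56 and 34 counts in hHAR123 (1.52, 2.31 and 1.45 CPM) and 6, 16 and 9 counts in HAR123-KO (0.258, 0.666 and 0.368 CPM). The second library was the highest of both groups, and the groups did not overlap. LHX2 fell by 1.97 ± 0.309 on the log2 scale (edgeR adjusted p = 3.2e-07), with the widest standard error of the 6 DEGs. SIX6, a relative of SIX3 that acts in the retina and the hypothalamus, had 25 counts over all 24 libraries and at most 4 in any. It was at 0 in 12 of them. In the library of lowest total in each group, 3 counts, the limit that a count of 0 allows, correspond to 0.0947 to 0.143 CPM. Differences in SIX6 were therefore not detectable at this depth.

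OTX2 and HESX1, the members with roles before neural induction, were lower in HAR123-KO without reaching the fold threshold. OTX2, a head organizer gene of forebrain and midbrain, was at 519, 501 and 510 CPM in hHAR123 and at 260, 253 and 258 CPM in HAR123-KO. The difference of -0.94 ± 0.0292 (log2; edgeR adjusted p = 3.3e-32) is many times the spread between libraries, and lies just inside the threshold of 1. HESX1, a repressor needed for the anterior forebrain and pituitary, was at 1.52, 1.36 and 1.41 CPM in hHAR123 and at 0.861, 0.791 and 0.695 CPM in HAR123-KO, with 17 to 33 counts per library. Its difference was -0.82 ± 0.263 (log2; edgeR adjusted p = 0.0075), and the adjusted p rose to as much as 0.0899 over the alternative settings.

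Genes of other identities moved in the same libraries. Over all 21362 genes tested in this comparison, 1052 were up-regulated and 966 down-regulated, the background of the HAR123-KO list counts below. The 12 neural crest and dorsal border genes were all up-regulated in HAR123-KO neuroectoderm, with a median log2 fold change of 4.22, and FOXD3, PAX7 and TFAP2B, regulators of neural crest, rose by 6.27, 6.09 and 5.87 on the log2 scale. Their summed level was 235 to 244 CPM in hHAR123 and 2100 to 2117 CPM in HAR123-KO, and none of the 12 was at 0 in all libraries of either group. Among midbrain, hindbrain and posterior neural genes, 6 rose and 2 fell of 9 tested (18 listed), with LMX1B, WNT1 and EN1, genes of the midbrain-hindbrain boundary, higher by 4.53, 4.25 and 3.59. The 2 that fell were EGR2, at -1.94, and PAX8, at -1.72. The sum of this list was 59.6 to 61.9 CPM in hHAR123 and 374 to 381 CPM in HAR123-KO, and CDX2, HOXB1 and HOXB2 were at 0 in all libraries of both groups.

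General neural plate genes were lower in sum, from 4308 to 4366 CPM in hHAR123 to 2300 to 2321 CPM in HAR123-KO. Of these 12 genes, 4 fell and 1 rose (FABP7, by 1.51 on the log2 scale), with a median of -0.66. HES5, a Notch target of neural progenitors, fell by 3.001 on the log2 scale, SOX2 by 1.73 and SOX1 by 1.60. Among 7 tested surface ectoderm and placode genes 3 rose and 1 fell, with TFAP2C and GATA3 higher by 4.38 and 3.89 and DLX5 lower at -2.48, and the list summed to 100.1 to 104 CPM in hHAR123 and 152 to 154 CPM in HAR123-KO. TP63 was at 0 in all hHAR123 libraries and KRT5 and KRT14 were at 0 in both groups. The single mesoderm or endoderm gene tested was not called. Fewer cells of a forebrain type and less of each RNA per cell cannot be told apart in these bulk libraries, and the part that the other cell identities had in the members' values was not tested.

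Of the other forebrain and eye field transcription factors, 7 were down-regulated and 2 up-regulated of 14 tested (18 listed), with a median log2 fold change of -1.13. The 2 that rose were MITF and NR2F1, the latter by 1.72 on the log2 scale (edgeR adjusted p = 8.1e-41). BARHL2 and LHX5, factors of the developing forebrain, fell by 4.24 and 2.37 on the log2 scale, LHX5 being named as a neighbour of EMX2 in profile (below). MITF, a regulator of pigment cells in both the eye and the neural crest, was at 0 in the 3 hHAR123 libraries and at 31 to 42 counts in HAR123-KO, at least 11.3-fold higher against a floor of 3 counts per library. PAX6, which acts in the eye field and in forebrain progenitors, was lower at -0.92 (edgeR adjusted p = 1.4e-31) and not called. Of the WNT antagonists and receptors of the anterior neural plate, 3 rose and 2 fell of 9 tested, with a median of -0.26. Here DKK1, a secreted WNT inhibitor, and FZD8, a WNT receptor, rose by 1.81 and 1.73 while SFRP1, another secreted inhibitor, fell by 1.66. Of 11 pluripotency genes 2 rose (L1TD1 by 2.77 and ZFP42 by 2.22) and 1 fell (UTF1, at -1.88), with a median of -0.16.

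**Figure D2:**
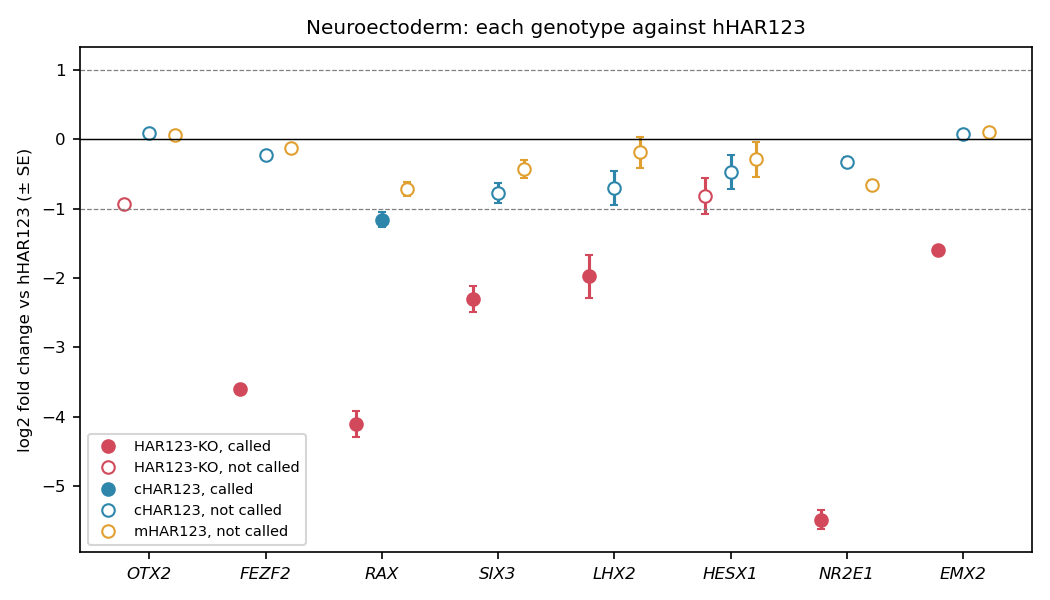
Log2 fold change against hHAR123 in neuroectoderm (y axis) for the 8 members tested (x axis), in HAR123-KO, cHAR123 and mHAR123, with bars for the standard error and filled points for DEGs, and dashed lines at the fold threshold. The HAR123-KO points run from -0.82 (HESX1) to -5.49 (NR2E1), and RAX in cHAR123, at -1.16, is the only filled point of the replaced orthologs.

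A further question was whether the chimpanzee and mouse orthologs sustain these genes as the human sequence does. In cHAR123 neuroectoderm, RAX was the only member called, down-regulated beside 0.456% of the 21275 genes tested. RAX stood at 4.56, 4.48 and 4.26 CPM, below each of the hHAR123 libraries, a change of -1.16 ± 0.108 (log2; edgeR adjusted p = 3.2e-11). Its mean was 44.5% of that in hHAR123. FEZF2, SIX3 and NR2E1 passed the adjusted p without the fold, at -0.22 ± 0.0387, -0.77 ± 0.143 and -0.32 ± 0.0636 on the log2 scale, which makes 4 of 8 members past the p alone, beside 9.89% of all genes tested. The libraries of NR2E1 were at 19.6, 19.9 and 19.6 CPM, those of SIX3 at 2.44, 3.21 and 2.96 CPM and those of FEZF2 at 75.7, 72.9 and 74.6 CPM, each group below hHAR123 without overlap.

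In mHAR123 neuroectoderm no member was called, beside 1.03% of the 21220 genes tested, although 5 of 8 had an unadjusted p under 0.05 in the edgeR test and DESeq2 called none either. The share of all genes at that unadjusted p was not counted, here or in the comparisons below, so such counts have no background. RAX was at 5.43, 5.67 and 6.66 CPM, a difference of -0.72 ± 0.106 (log2; edgeR adjusted p = 2.4e-06), and NR2E1 at 15.3, 14.6 and 16.0 CPM, a difference of -0.66 ± 0.0689 (edgeR adjusted p = 1.2e-09). These were the 2 of 8 members past the adjusted p at any fold, beside 14% of all genes tested. Both groups lay below hHAR123 without overlap. SIX3 was at 3.62, 3.81 and 3.29 CPM (-0.43 ± 0.133; edgeR adjusted p = 0.017) and did not pass. FEZF2, at 77.3, 77.1 and 81.3 CPM, had a difference of -0.12 ± 0.0416 that did not pass either (adjusted p = 0.033).

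OTX2 and EMX2 stood at or slightly above their hHAR123 levels with either ortholog. OTX2 was at 528, 552 and 534 CPM in cHAR123 and at 528, 516 and 501 CPM in mHAR123, with 95% intervals of the log2 difference from hHAR123 of 0.04 to 0.14 and of 0.00 to 0.12. For EMX2 the libraries were at 89.6, 91.2 and 88.2 CPM and at 92.7, 89.8 and 86.3 CPM, with intervals of 0.00 to 0.15 and of 0.02 to 0.18. None of these 4 differences passed the adjusted p, and the intervals hold no change of the size seen in HAR123-KO. OTX2 in cHAR123 missed it narrowly (edgeR adjusted p = 0.0106), and over the alternative settings its edgeR or DESeq2 adjusted p ran from 0.000644 to 0.0978. The cHAR123 libraries of both genes lay above those of hHAR123 without overlap. LHX2 and HESX1 were less certain. LHX2 was at 0.800, 1.27 and 1.17 CPM in cHAR123 (-0.71 ± 0.245; edgeR adjusted p = 0.039) and at 1.69, 1.41 and 1.43 CPM in mHAR123 (-0.19 ± 0.223; adjusted p = 0.61). HESX1 was at 0.880, 1.18 and 0.986 CPM in cHAR123 and at 0.731, 1.37 and 1.34 CPM in mHAR123, with differences of -0.48 ± 0.244 and -0.29 ± 0.253.

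Against HAR123-KO, 7 of 8 members tested were up-regulated in cHAR123 neuroectoderm and 7 of 8 in mHAR123 neuroectoderm, beside 3.7% and 3.55% of all genes tested. These comparisons share the HAR123-KO libraries with the first comparison. A member that passed the low-count filter through its ortholog libraries alone could only differ upward, so these counts are a description. NR2E1 was higher by 5.19 ± 0.142 in cHAR123 and by 4.85 ± 0.153 in mHAR123, FEZF2 by 3.40 ± 0.0588 and 3.50 ± 0.061, and RAX by 2.97 ± 0.223 and 3.41 ± 0.215 on the log2 scale. SIX3 was higher by 1.56 and 1.90, EMX2 by 1.69 and 1.72, LHX2 by 1.29 and 1.81, and OTX2 by 1.05 and 1.02. HESX1 was not called in either comparison (0.36 ± 0.286 and 0.55 ± 0.289). The OTX2 call in mHAR123 sits at the fold threshold, at 0.9963 when all libraries of the stage were fitted together. LHX2 in cHAR123 lost its call without replicate 1 of HAR123-KO (adjusted p = 0.0153) or replicate 2 of cHAR123 (adjusted p = 0.0114).

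The cHAR123 and mHAR123 libraries were also compared with each other. No member was called, beside 0.261% of the 21108 genes tested, with 5 of 8 at an unadjusted p under 0.05 in the edgeR test and none called by DESeq2. NR2E1 alone passed the adjusted p, beside 4.2% of all genes tested, and was lower in mHAR123 at -0.34 ± 0.0682 (log2; edgeR adjusted p = 3.8e-04). RAX lay the other way, higher in mHAR123 at 0.44 ± 0.121 (adjusted p = 0.0155), without passing. The order of RAX was thus hHAR123, mHAR123, cHAR123 and HAR123-KO, and that of NR2E1 was hHAR123, cHAR123, mHAR123 and HAR123-KO, with no overlap between neighbours in either order. For OTX2 and EMX2, neighbours among hHAR123, cHAR123 and mHAR123 overlapped, and HAR123-KO stood apart.

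In the same cHAR123 and mHAR123 libraries the 12 neural crest and dorsal border genes summed to 435 to 448 CPM and 467 to 470 CPM, above the 235 to 244 CPM of hHAR123. Of these genes 10 were up-regulated in cHAR123 and 7 in mHAR123, with medians of 1.32 and 1.49 on the log2 scale. Over all genes tested, 111 of 21275 were up-regulated in cHAR123 and 128 of 21220 in mHAR123. The midbrain, hindbrain and posterior neural list summed to 99.6 to 100.3 CPM and 87.3 to 90.6 CPM, and 2 of its genes were up-regulated in each, WNT1 (1.48) and LMX1B (1.45) in cHAR123. General neural plate genes, none of which was called, summed to 4179 to 4206 CPM and 4049 to 4071 CPM. Surface ectoderm and placode genes summed to 103 to 108 CPM and 121 to 127 CPM, and TFAP2C rose in both (1.27 and 1.46). Among the other forebrain and eye field factors, BARHL2 was not called with either ortholog and differed by 0.34 in cHAR123 and -0.24 in mHAR123. The part of these other identities in the RAX, SIX3 and NR2E1 values was not tested.

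**Figure D3:**
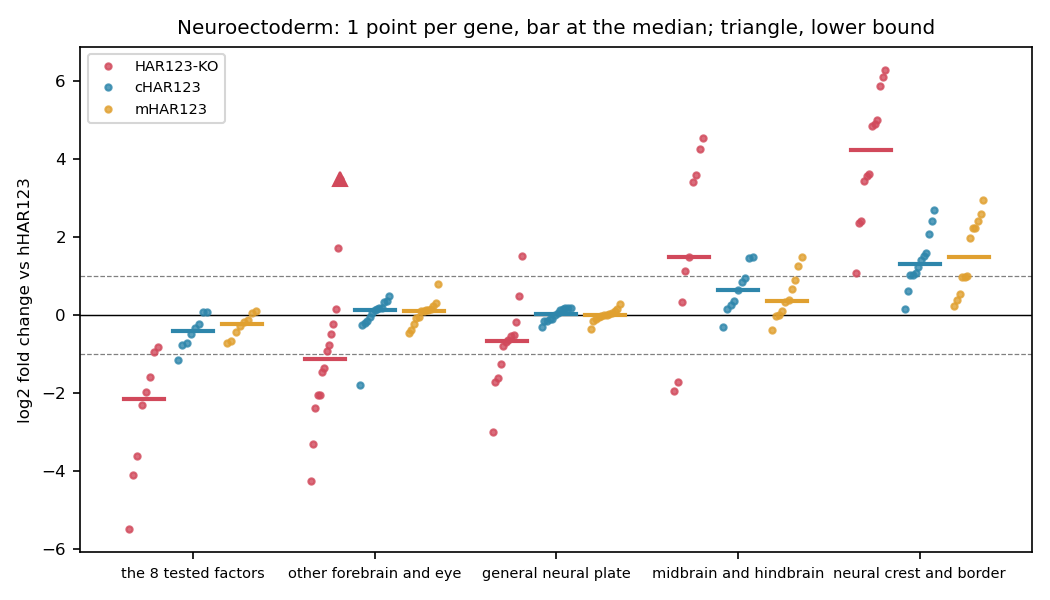
Log2 fold change against hHAR123 in neuroectoderm (y axis) for each gene tested in 5 lists (x axis), in HAR123-KO, cHAR123 and mHAR123, with a bar at the median and a triangle for MITF at its lower bound. In HAR123-KO the medians are -2.14 for the members, -1.13 for other forebrain and eye factors and 4.22 for neural crest and border genes, and with either ortholog those of both forebrain lists lie within 0.5 of 0.

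The next comparison addressed hESCs, before neural induction. Only OTX2 and HESX1 were measured at this stage above a trace. OTX2 was at 37.2, 33.9 and 33.7 CPM in hHAR123 and lower in each edited genotype, at 28.2, 29.7 and 28.0 CPM in HAR123-KO, 28.8, 25.9 and 28.0 CPM in cHAR123 and 26.1, 29.1 and 27.4 CPM in mHAR123. No library of an edited genotype reached the lowest hHAR123 library. The differences were -0.31 ± 0.0507, -0.37 ± 0.0529 and -0.39 ± 0.051 on the log2 scale (edgeR adjusted p = 1e-05, 9.5e-07 and 5.9e-08).

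HESX1 showed the same arrangement. Its level was 4.26, 3.52 and 3.72 CPM in hHAR123 hESCs, 2.19, 2.86 and 1.82 CPM in HAR123-KO, 2.48, 2.29 and 2.84 CPM in cHAR123 and 2.52, 2.70 and 2.39 CPM in mHAR123. The 9 edited libraries lay below the 3 hHAR123 libraries, and the edited genotypes overlapped each other. The differences were -0.77 ± 0.148, -0.62 ± 0.138 and -0.63 ± 0.133 (log2; edgeR adjusted p = 1.2e-04, 7.8e-04 and 2.3e-04), and over the alternative settings the adjusted p reached 0.0134 in cHAR123. The 3 comparisons share the hHAR123 libraries, so a deviation of those libraries would appear in each.

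No member reached the fold threshold in hESCs, beside 1.18% of all genes called in HAR123-KO, 0.85% in cHAR123 and 1.23% in mHAR123. DESeq2 called none in these comparisons. Past the adjusted p at any fold were 2 of 2 members tested in HAR123-KO, 2 of 3 in cHAR123 and 2 of 4 in mHAR123 (each 2 at an unadjusted p under 0.05), beside 12.4%, 16.3% and 19.2% of all genes tested. LHX2, tested with either ortholog, and RAX, tested in mHAR123, did not pass. LHX2 was at 0.279 to 0.378 CPM in the group means, RAX at 0.189 to 0.338 CPM and SIX3 at 0.0521 to 0.190 CPM. FEZF2, NR2E1, EMX2 and SIX6 had 0 to 6 counts per library. The pluripotency genes, none of which was called in HAR123-KO, cHAR123 or mHAR123 hESCs, summed to 7762 to 7883 CPM in hHAR123, 8007 to 8180 CPM in HAR123-KO, 7544 to 7723 CPM in cHAR123 and 7640 to 7789 CPM in mHAR123.

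**Figure D4:**
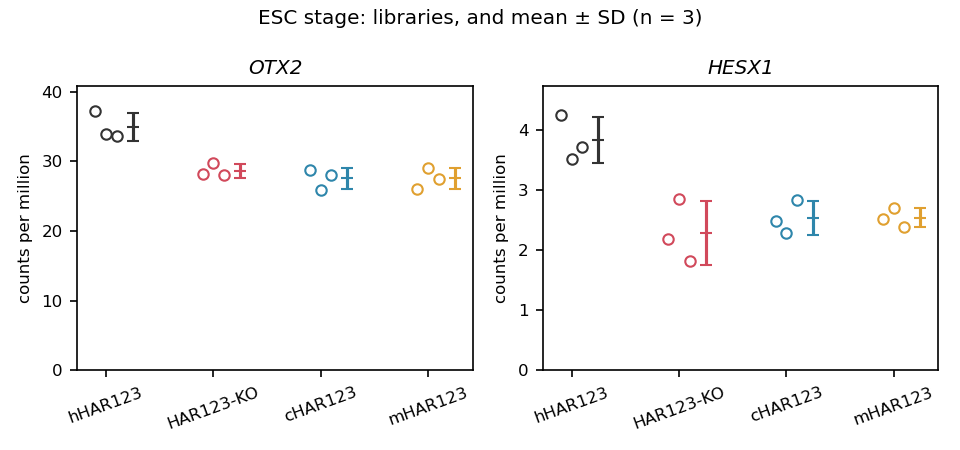
OTX2 and HESX1 in hESCs, in CPM (y axis, from 0), by genotype (x axis), with open circles for libraries and a dash with bars for the mean and SD of 3 libraries. The hHAR123 libraries, at 33.7 to 37.2 CPM for OTX2 and 3.52 to 4.26 CPM for HESX1, lie above every library of the edited genotypes.

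A further comparison followed the genes from hESCs to neuroectoderm within each genotype. In hHAR123, 8 of 8 members tested were called, 7 up-regulated and HESX1 down-regulated, beside 45.9% of the 22280 genes tested. A member that passed the low-count filter through its neuroectoderm libraries alone could only rise, so this count and those of the other genotypes below are a description. OTX2 rose by 3.58 ± 0.0385 on the log2 scale, an 11.9-fold higher level from a base already above 30 CPM. RAX rose by 5.13 ± 0.208, SIX3 by 4.38 ± 0.257 and LHX2 by 1.92 ± 0.295. FEZF2, NR2E1 and EMX2 held at most 2 counts in any hHAR123 hESC library, so their change is given as the ratio of counts per library total with an exact 95% interval that covers counting error only. The ratio was 1758 (753 to 5416) for FEZF2, 1722 (737 to 5305) for EMX2 and 2489 (446 to 98372) for NR2E1.

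HESX1 went the other way in each genotype. Its level in neuroectoderm was 37.3% of that in hESCs in hHAR123, 34.2% in HAR123-KO, 40.1% in cHAR123 and 45.1% in mHAR123. The fitted changes were -1.71 ± 0.167, -1.74 ± 0.233, -1.53 ± 0.208 and -1.33 ± 0.207 on the log2 scale. The libraries of the stages did not overlap in any genotype.

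In HAR123-KO, 6 of 6 members tested were called, 5 up-regulated and HESX1 down-regulated, beside 41.1% of the 21509 genes tested. OTX2 rose by 2.97 ± 0.0359 on the log2 scale and SIX3 by 2.43 ± 0.409. For EMX2, which had 1 count in all over the HAR123-KO hESC libraries, the ratio was 2357 (422 to 93127). The ratio was 600.2 (107 to 23754) for FEZF2 and only 22.7 (5.87 to 194) for NR2E1. RAX and LHX2 did not pass the low-count filter in this genotype, and their libraries overlapped between the stages, with ratios of 2.99 (1.64 to 5.72) and 1.54 (0.877 to 2.75). In the mutant, OTX2, FEZF2, SIX3, NR2E1 and EMX2 rose with differentiation. The interval of the RAX ratio lay above 1 and that of the LHX2 ratio held 1. RAX was called up-regulated with no filter on low counts and without HAR123-KO ECTO replicate 2, which made 7 members called in place of 6. In the other alternatives that tested RAX it was not called, and over all of them its edgeR or DESeq2 adjusted p ran from 0.000456 to 0.102.

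With the orthologs, 8 of 8 members tested were called in cHAR123 and 8 of 8 in mHAR123, beside 42.7% and 41.9% of all genes tested, again with HESX1 alone down-regulated. RAX rose by 3.86 ± 0.252 in cHAR123 and by 3.95 ± 0.212 in mHAR123 on the log2 scale, OTX2 by 4.08 ± 0.0349 and 4.06 ± 0.0368, and LHX2 by 1.37 ± 0.329 and 2.24 ± 0.31. LHX2 in cHAR123 was not called by DESeq2 (adjusted p = 0.0146). FEZF2 had no count in the cHAR123 hESC libraries and was at least 660.1-fold higher in neuroectoderm, against a floor of 3 counts per library. The ratio of NR2E1 was 831 (230 to 6870) in cHAR123 and 704 (194 to 5820) in mHAR123, and that of SIX3 was 40.2 (18.2 to 111) and 66 (27.9 to 205).

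An interaction term over 12 libraries tested whether a genotype effect was unequal at the 2 stages. For HAR123-KO, 3 of 8 members tested were called, all with a more negative effect in neuroectoderm, beside 4.03% of the 23113 genes tested. RAX had the firmest of these, at -3.79 ± 0.659 on the log2 scale (edgeR adjusted p = 4.2e-06). A member that passed the filter through its hHAR123 neuroectoderm libraries alone could only differ in this direction, so the count of 3 is a description. SIX3, at -1.97 ± 0.63 (adjusted p = 0.0093), lost its call in 8 of 12 fits that left out a library and in those with DESeq2, no filter or the replicate number as a block. NR2E1 was called (adjusted p = 0.0047), but its hESC libraries held 0 to 2 counts, so the fitted size is no measure, and without replicate 2 of HAR123-KO hESCs its adjusted p and that of SIX3 no longer passed, which left RAX alone. OTX2 passed the adjusted p without the fold, at -0.63 ± 0.0535 (adjusted p = 2.4e-14). HESX1 had the same size of effect at both stages within its error (-0.05 ± 0.285; interval -0.61 to 0.51). FEZF2 and EMX2 were not called, but their hESC libraries of these genotypes also held 0 to 2 counts. The test therefore cannot show whether their effect was equal at both stages.

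No member was called in the interaction for cHAR123, beside 0.797% of all genes tested, or for mHAR123, beside 0.967%, with 3 of 8 at an unadjusted p under 0.05 in each, and DESeq2 called none. OTX2 passed the adjusted p in both, with a positive sign, at 0.47 ± 0.0547 and 0.46 ± 0.0541 on the log2 scale (edgeR adjusted p = 8.8e-09 and 5.4e-09). Its level was below hHAR123 in hESCs of these genotypes and at or above it in neuroectoderm. RAX had interactions of -1.30 ± 0.491 in cHAR123 and -1.20 ± 0.437 in mHAR123 (adjusted p = 0.066 and 0.045), and the mHAR123 call appeared without replicate 1 of hHAR123 hESCs (adjusted p = 0.0063) or with the labels of the ortholog neuroectoderm libraries exchanged (adjusted p = 0.0043).

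Genes with the profile nearest to each member were found over the 8 group means, by the root mean square difference of log2(CPM + 0.5) after centring each gene, among 17350 genes. The nearest to FEZF2 was FEZF1-AS1, antisense to its relative FEZF1, with a difference of 0.112. FEZF1-AS1 was at 143 CPM in hHAR123 neuroectoderm and at 12.8 CPM in HAR123-KO. BARHL2 (0.34) and IGFN1 (0.453) were nearest to NR2E1, and BARHL2 went from 12.9 CPM in hHAR123 neuroectoderm to 0.655 CPM in HAR123-KO. LHX5 (0.238) and EHBP1-AS1 (0.281) were nearest to EMX2, and LHX5 went from 105.5 CPM to 19.7 CPM.

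Nearest to OTX2 were the noncoding RNAs ZNF503-AS2 (0.142) and MIAT (0.149), which stood at 9.16 and 1845 CPM in hHAR123 neuroectoderm and at 4.78 and 782 CPM in HAR123-KO. TMEM74 (0.24) and C6orf141 (0.258) were nearest to RAX, ABCA10 (0.178) and TMSB15A (0.196) to SIX3, and NRARP (0.101), a Notch target, and LINC00869 (0.124) to LHX2. CDH5 (0.154) and the mitochondrial tRNA gene MT-TW (0.156) were nearest to HESX1. The 8 points share their libraries, and the members spanned from 1.52 (LHX2) to 7.46 (FEZF2) on this log2 scale, so a small difference means less for a gene of small range.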

How the data were processed

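Bulk RNA-seq of H9 hESCs of 4 genotypes at 2 stages was used, 3 libraries each. Per the paper's methods and the labels, ribosomal RNA was removed, directional libraries were made and read as pairs on a NovaSeq instrument, and the authors aligned the reads to GRCh38 with STAR 2.5.2b and summed exon reads over genes by featureCounts. What they deposited are raw, unnormalized counts. One gene, ANK2, was broken over 3 lines and left out. Depth was 21022748 to 35198684 counts per library, and intervals and floors of 3 counts cover counting error only.

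In R 4.3.3 with edgeR 4.0.16, the groups of each comparison were fitted alone: filterByExpr, TMM scaling, the quasi-likelihood F test, and p-values adjusted by Benjamini-Hochberg over all genes tested. DEGs passed an adjusted p of 0.01 and a log2 fold change of 1 in size. The SE of a fold change comes from F (its size over the root of F), and intervals are 1.96 SE either side. Ratios for members with at most 3 counts per library in a group, or that did not pass the filter, used exact binomial intervals (95%). The scripts were tested on simulated data.

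The members and gene lists were chosen with earlier results of these data known. Named were all 9 members, the 3 largest changes per list among those called in HAR123-KO neuroectoderm, and the 2 genes of nearest profile per member (mean of at least 1 CPM, pseudocount 0.5 CPM); other genes were named after their values were seen. Some genes that this rule would name are not reported here. Same-numbered libraries did not deviate together (correlations of -0.0541 to 0.0568 over 17513 genes). The alternatives were DESeq2 1.42.0, its size factors in edgeR, no filter, a replicate block, an adjusted p of 0.05, all libraries of a stage in 1 fit, and each library left out. Exchanged ortholog labels were added after seeing the data. Columns of the authors' own comparisons were not used.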

Additional observations from a re-analysis of the deposited data

Results flagged for a closer look

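The genotype effect on a member differed between hESCs and neuroectoderm, by the interaction test of edgeR (quasi-likelihood, adjusted p under 0.01), in 6 cases. For HAR123-KO against hHAR123 the difference of the log2 fold changes, neuroectoderm minus hESCs, was -0.6338 for OTX2, -3.791 for RAX, -1.972 for SIX3 and -6.432 for NR2E1. The NR2E1 size is not a measure, because its hESC libraries held 0 to 2 counts. For OTX2 the difference was 0.4729 in cHAR123 and 0.4646 in mHAR123. In these the OTX2 libraries of hHAR123 stood above those of the edited genotype in hESCs and not in neuroectoderm. All of these comparisons share the hHAR123 libraries.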

How the results depend on the processing

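The number of members called kept to within 1.5 times its main value in every comparison and alternative, apart from the interactions. For HAR123-KO it ranged from 1 to 3 when a library was left out, with 1 (RAX) without replicate 2 of HAR123-KO hESCs. For mHAR123 it was 0 to 1 when a library was left out, with 1 (RAX) without replicate 1 of hHAR123 hESCs, and 1 at an adjusted p of 0.05 or with the ortholog labels exchanged. Of 1115 values of single members under the alternatives, 1087 kept their direction and their side of the threshold, 15 lost a call, 5 gained one and 8 turned in sign, all of them differences that were not called. LHX2 ran from -0.313 to 0.0749 in mHAR123 against hHAR123 neuroectoderm, from -0.32 to 0.22 in cHAR123 against hHAR123 hESCs and from -0.0389 to 0.558 in the mHAR123 interaction when a library was left out, with -0.2302 there for exchanged labels. HESX1 ran from -0.20 to 0.14 in the HAR123-KO interaction. The SIX3 interaction for HAR123-KO lost its call (adjusted p of 0.0112 with DESeq2 and 0.0102 with no filter) and lay between -2.62 and -1.56 without 1 library, losing it without replicate 1 or 3 of hHAR123 hESCs or neuroectoderm, or replicate 2 or 3 of HAR123-KO hESCs or neuroectoderm. The cause was not tested.

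The replicate numbers do not pair the libraries, and with the number as a block the calls of members were the same in number in every comparison but the HAR123-KO interaction, where SIX3 missed the threshold (-1.98, adjusted p = 0.0108). Over all genes, DESeq2 called 124 in place of 208 for cHAR123 and 131 in place of 219 for mHAR123 against hHAR123 in neuroectoderm, 12 in place of 55 between them, 155, 73 and 107 in place of 246, 178 and 259 for HAR123-KO, cHAR123 and mHAR123 in hESCs, and 119 and 151 in place of 186 and 229 for the ortholog interactions, which came to 377 and 487 at an adjusted p of 0.05. Depth limits LHX2, HESX1, SIX6 and every member but OTX2 and HESX1 in hESCs.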
